A study of Mus musculus with 12 samples.

Results

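The genes described here are those of the retinoblastoma (RB) family and of the E2F and DP transcription factors, which together gate entry into S phase. A total of 10 genes were listed: the pocket proteins Rb1, Rbl1 and Rbl2, the factors E2f1, E2f3, E2f4, E2f5 and E2f6, and the partners Tfdp1 and Tfdp2. All probe sets assigned to a listed gene alone were taken, which gave 13 probe sets for 9 genes, of 22690 probe sets on the array. No probe set was assigned to Tfdp2 in the platform table used, so it is not analysed here. The genes were not chosen by a measured value of theirs, but earlier results of these data were known when they were listed.

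Pocket proteins bind E2F factors and recruit repressors to their target promoters, and phosphorylation by cyclin-dependent kinases releases the E2F factors as cells commit to replication. E2f1 and E2f3 are known mainly as activators, E2f4 and E2f5 mainly as repressors that act with Rbl1 (p107) and Rbl2 (p130), and E2f6 represses without binding pocket proteins. The E2F proteins of the listed genes bind DNA as dimers with a DP protein, the product of Tfdp1 or Tfdp2. Large T antigen of simian virus 40 binds the pocket proteins through the cleft that cellular partners use, which frees E2F factors from them.

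RNA was measured on 12 single-color arrays. The tissue samples were 3 mammary glands of female NMRI mice, 3 glands of WAP-SVT/t mice and 3 breast cancers of WAP-SVT/t mice. All 6 glands were taken on the first day of lactation. The transgenic mice are also of the NMRI strain and make the viral T and t antigens in mammary epithelial cells, per the labels. The remaining 3 arrays held breast cancer cell lines: ME-A, the line ME-B, which the labels call a revertant, and ME-B-T/t, called retransformed. The strain of the lines and whether they make T antigen were not given in the sources used here. Ages were not given in the sources used here. Signals below are scaled intensities, and those at or under a floor of 57.5 were treated as equal in the tests. Groups of 3 arrays limit the precision. The labels give each tissue sample a number and each tumor a further identifier. They do not say whether samples of a group came from separate mice. The p-values thus measure the spread between these samples, which may be technical.

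The arrays differed in tissue mixture and RNA quality, in ways that touch the results below. Milk protein and secretory markers (10 of 10 with a probe set) had mean log2 signals of 13.48 to 13.78 in NMRI glands, 11.59 to 12.16 in WAP-SVT/t glands (transgenic glands below) and 7.79 to 8.90 in tumors. Basal markers were lower in tumors than in NMRI glands in 7 of 7 tested, and adipocyte markers in 6 of 7. Macrophage markers were higher than in NMRI glands in 3 of 9 tested in transgenic glands and in 4 of 9 in tumors, where 1 was lower. The part of these cells in the results below was not tested. Luminal epithelial markers lay between 10.70 and 11.93 in all 9 tissues and at 11.52 in ME-A, but at 6.60 in ME-B and 6.29 in ME-B-T/t, with 5 and 6 of 10 markers at the floor. Skeletal muscle markers (15 of 15) were at 9.32 to 10.29 in NMRI glands. Among the transgenic glands, numbers 1 and 2 had 6.68 and 6.65 and number 3 had 10.30. The ratio of 3-prime to 5-prime Gapdh control signal, a measure of RNA integrity, ran from 2.28 to 40.3 in NMRI glands and from 2.49 to 22.5 in transgenic glands. It was 5.63 in tumor 1 and at most 0.982 in the other tumors and the lines. In bulk RNA, fewer cells of a type and less RNA per cell cannot be told apart.

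Stretches upstream of the annotated start site are printed for Rbl1 and Tfdp1, whose signals were higher with the transgene, and for E2f3, which stayed near the floor, because all 3 carry letters of the E2F motif. The windows were RefSeq promoters of build GRCm38.p6 with 250 bases before and 50 after the start, and 7 of the 10 listed genes had one. The motif was searched in 4 forms (TTTCCCGC, TTTGGCGC, TTTCGCGC, TTTGCCGC) on both strands. Each printed stretch holds the last 120 bases before the start, 5′ to 3′ on the gene's strand, with the match in capitals. They lie at chr2:157204535-157204654 (minus strand) for Rbl1, chr8:13338631-13338750 (plus strand) for Tfdp1 and chr13:29986064-29986183 (minus strand) for E2f3.
Rbl1: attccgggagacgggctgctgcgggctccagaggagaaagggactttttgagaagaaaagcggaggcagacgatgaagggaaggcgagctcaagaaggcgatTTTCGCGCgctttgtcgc
Tfdp1: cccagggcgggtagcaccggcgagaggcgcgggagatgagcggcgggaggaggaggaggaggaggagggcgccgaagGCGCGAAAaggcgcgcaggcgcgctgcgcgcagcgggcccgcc
E2f3: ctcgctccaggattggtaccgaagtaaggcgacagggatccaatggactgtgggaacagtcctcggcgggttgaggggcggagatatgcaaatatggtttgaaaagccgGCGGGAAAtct
The match began 18 bases before the start in Rbl1, 43 bases before it in Tfdp1 on the opposite strand, and 11 bases before it in E2f3, also on the opposite strand. Tfdp1 and E2f3 had a second window at another start site. In Tfdp1 it overlapped the first window and held the same match, on the same bases, 96 bases before that other start. In E2f3 the second window held no match. The windows of E2f1, Rbl2, E2f6 and Tfdp2 held none of these letters. Those of E2f1 and Tfdp2 lie at start sites inside the annotated genes, and other start sites of these genes were not searched. A match stood in 2.26% of all 32851 windows, in 2.6% of 27025 genes, and in 17 of the 39 genes with a window on a list of 50 known E2F target genes (43.6%). A match describes the letters of a window and does not show that a factor binds there.

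**Figure D1:**
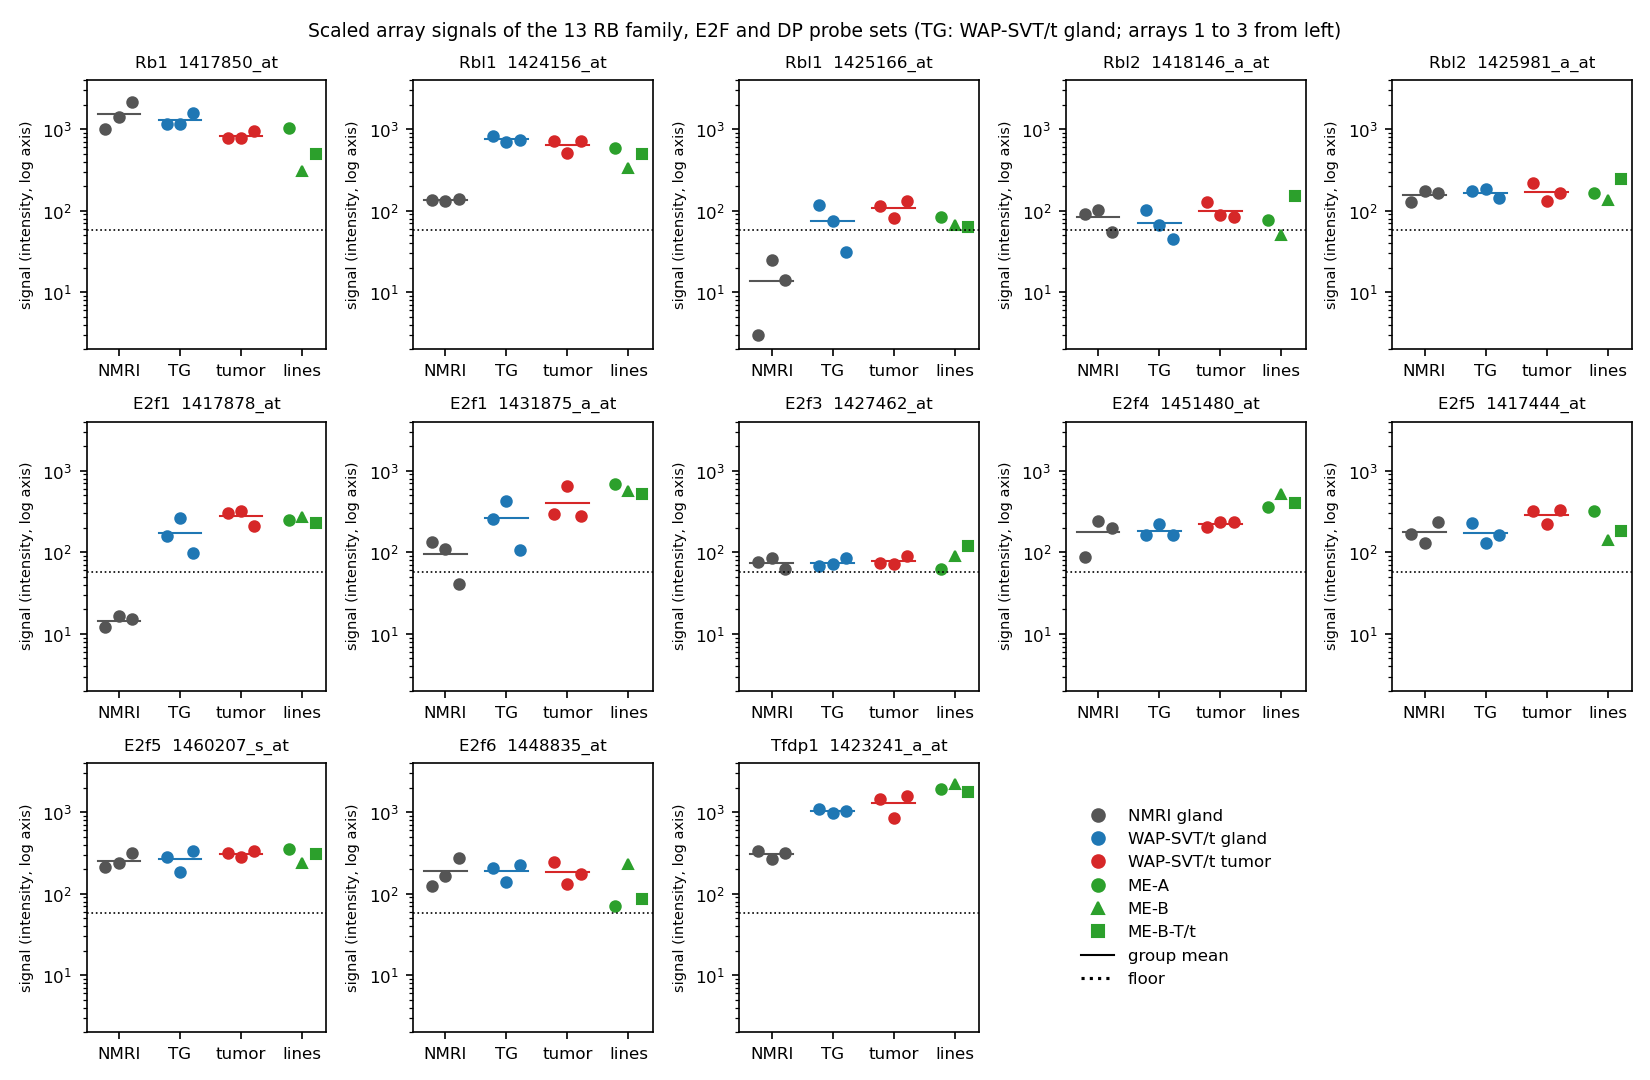
Scaled array signal (intensity, logarithmic axis) of each of the 13 probe sets in NMRI glands, WAP-SVT/t glands (TG), tumors of WAP-SVT/t mice and 3 lines, with 1 point per array, horizontal bars at the means of tissue groups and a dotted line at the floor of 57.5. In Rbl1 1424156_at and Tfdp1 all 3 NMRI glands lie below every other array, and in E2f1 1417878_at all 3 NMRI glands lie under the floor.

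Among the pocket proteins, Rbl1 was far higher in transgenic glands and tumors than in NMRI glands, while Rb1 and Rbl2 did not pass the test in any tissue comparison. Rbl1 encodes p107, which is itself a known E2F target. Its probe set 1424156_at had signals of 134, 130 and 139 in NMRI glands 1 to 3. It had 821, 697 and 736 in transgenic glands and 710, 514 and 707 in tumors. The 3 NMRI glands varied little and lay far below all other arrays, and transgenic glands and tumors overlapped. Rbl1 was 5.59-fold higher in transgenic than in NMRI glands (log2 difference 2.48 ± 0.22 standard error, adjusted p = 6.90e-05 by limma), and 4.75-fold higher in tumors than in NMRI glands (adjusted p = 8.20e-05). These comparisons share the NMRI glands. As all 3 NMRI signals were under the cutoff of the filter on low signals (139.9), Rbl1 was tested by way of the arrays where it was high, and its call held with no filter. Tumors and transgenic glands differed by -0.24 ± 0.22 (95% interval -0.73 to 0.26), which did not pass (adjusted p = 0.664). With the Gapdh ratio as a covariate the Rbl1 difference between transgenic and NMRI glands was 2.50.

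A dimmer Rbl1 probe set, 1425166_at, did not pass the filter on low signals and was not tested. It read 3.03, 24.7 and 14.2 in NMRI glands, all under the floor, and 116, 75.3 and 31.5 in transgenic glands. The tumors had 114, 80.4 and 130. The tumors and transgenic glands 1 and 2 lay above the floor, whereas transgenic gland 3 was under it with the NMRI glands, and the tumors had the highest mean. Tumors were at least 1.84-fold above NMRI glands. Fitted by limma with no filter, its log2 difference from NMRI glands was 0.47 ± 0.28 in transgenic glands and 0.88 ± 0.28 in tumors. Neither passed (adjusted p = 0.448 and 0.0936). Across the 12 arrays the 2 Rbl1 probe sets had a Pearson correlation of 0.68.

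Rb1 encodes the retinoblastoma protein, the pocket protein lost in many tumors. Its probe set read 1015, 1402 and 2148 in NMRI glands and 1167, 1171 and 1572 in transgenic glands. In the tumors it read 781, 771 and 953. Every tumor was below every gland, whereas the gland groups overlapped. Of the 10 member probe sets tested, Rb1 was the 1 whose tumors and transgenic glands did not overlap, which held for 18.8% of all probe sets tested. The log2 difference was -0.17 ± 0.29 between transgenic and NMRI glands (95% interval -0.80 to 0.46, adjusted p = 0.761). Tumors differed by -0.63 ± 0.29 from transgenic glands (adjusted p = 0.329) and by -0.80 ± 0.29 from NMRI glands (adjusted p = 0.0676), and neither passed. The latter had adjusted p = 0.0495 after quantile normalization and adjusted p = 0.0369 without NMRI gland 1, the lowest NMRI gland. In both gland groups the highest Rb1 signal was in gland 3, the array with the highest Gapdh ratio of its group. With that ratio as a covariate, tumors and NMRI glands differed by -0.60 (adjusted p = 0.265).

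Rbl2 encodes p130, the pocket protein that prevails in resting cells. Its brighter probe set, 1425981_a_at, had a mean of 154 ± 24.2 (SD, n = 3) in NMRI glands, 167 ± 21.8 in transgenic glands and 172 ± 44.0 in tumors. All 3 groups overlapped, and the differences from NMRI glands were 0.12 ± 0.27 in transgenic glands (95% interval -0.49 to 0.72) and 0.14 ± 0.27 in tumors (95% interval -0.47 to 0.74). The dimmer probe set, 1418146_a_at, was not tested and ranged from 45.5 to 127.5 over the 9 tissues, with 1 array at the floor in each gland group.

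Of the E2F genes with a probe set, E2f1 was higher in tumors than in NMRI glands on both of its probe sets, and in transgenic glands on 1 of them. E2f1 encodes an activator that can drive quiescent cells into S phase. Probe set 1417878_at read 12.1, 16.3 and 15.2 in NMRI glands, 156, 260 and 99.1 in transgenic glands, and 299, 325 and 212 in tumors. All NMRI glands were under the floor and all other arrays above it. The signal was therefore at least 2.77-fold higher in transgenic glands (log2 difference at the floor 1.47 ± 0.35, adjusted p = 0.0267) and at least 4.77-fold higher in tumors (2.26 ± 0.35, adjusted p = 0.00144). Both E2f1 probe sets passed the filter through the transgenic arrays and the tumors, where they were high. The call between the gland groups was lost without NMRI gland 1, 2 or 3 or transgenic gland 1 or 2, at adjusted p between 0.0641 and 0.0964, and with no filter (adjusted p = 0.0751).

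The brighter E2f1 probe set, 1431875_a_at, read 135, 109 and 40.6 in NMRI glands and 256, 430 and 107 in transgenic glands. The tumors had 298, 641 and 277. Transgenic gland 3 lay below NMRI glands 1 and 2, and the lowest array of each gland group was gland 3, which had the highest Gapdh ratio of its group. The difference between transgenic and NMRI glands, 1.27 ± 0.53, did not pass (adjusted p = 0.164). It passed with the sample number as a replicate block (adjusted p = 0.0451) and without transgenic gland 3 (1.81, adjusted p = 0.0458). In tumors the probe set was 3.97-fold higher than in NMRI glands (1.99 ± 0.53, adjusted p = 0.0211), with no overlap. This call was lost with the Gapdh ratio as a covariate (1.19, adjusted p = 0.140), with no filter (adjusted p = 0.0901), without NMRI gland 3 (adjusted p = 0.0739) and without tumor 2 (adjusted p = 0.0792). Over the 12 arrays the 2 E2f1 probe sets had a Pearson correlation of 0.91.

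E2f4 and E2f5, the factors that act mainly as repressors, and the repressor E2f6 did not pass in any tissue comparison. E2f4 read 86.8, 244 and 197 in NMRI glands, 164, 222 and 161 in transgenic glands and 206, 234 and 235 in tumors. NMRI gland 1 was the lowest of these and the groups overlapped. E2f6 had 189 ± 79.0 in NMRI glands, 191 ± 46.2 in transgenic glands and 184 ± 59.3 in tumors (n = 3 each), and the difference between the gland groups was 0.06 ± 0.36 (95% interval -0.74 to 0.86). The 3 group means of E2f6 differed far less than the arrays within a group.

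E2f5 had 2 probe sets. Probe set 1417444_at read 169, 129 and 234 in NMRI glands, 230, 130 and 163 in transgenic glands and 320, 219 and 328 in tumors. Tumors tended to be the highest but overlapped with the glands. Their difference was 0.75 ± 0.32 from transgenic glands (adjusted p = 0.298) and 0.73 ± 0.32 from NMRI glands (adjusted p = 0.124), the latter with adjusted p = 0.0398 when the Gapdh ratio was a covariate. Probe set 1460207_s_at gave smaller differences, 0.26 ± 0.28 and 0.30 ± 0.28, and neither passed.

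E2f3, an activator with a probe set that did not reach the median signal on any array, was not tested. It ranged from 61.9 to 90.7 in the 9 tissues, just above the floor, with group means of 74.2 ± 11.8, 74.2 ± 8.81 and 79.2 ± 10.1 in NMRI glands, transgenic glands and tumors. Fitted with no filter, its log2 difference from NMRI glands was 0.01 ± 0.15 in transgenic glands and 0.10 ± 0.15 in tumors, and neither passed. E2f8, an atypical E2F that represses E2F targets and is not among the listed genes, was under the floor in all NMRI glands. It was at least 6.15-fold higher in transgenic glands (adjusted p = 0.00114) and at least 8.32-fold higher in tumors (adjusted p = 0.000232), and was the single gene of 4 further E2F and DP genes with a probe set.

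Tfdp1, which encodes the dimer partner DP1, was higher in transgenic glands and tumors than in NMRI glands. Its signals were 336, 267 and 318 in NMRI glands and 1091, 969 and 1043 in transgenic glands. Tumors had 1442, 837 and 1555, with tumor 2 below all transgenic glands and the other tumors above them. No NMRI gland reached the lowest of the other arrays. The difference from NMRI glands was 1.76 ± 0.27 in transgenic glands (3.38-fold, adjusted p = 0.00247) and 2.01 ± 0.27 in tumors (4.04-fold, adjusted p = 0.000528). Tumors and transgenic glands differed by 0.26 ± 0.27 (95% interval -0.34 to 0.85) and overlapped.

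**Figure D2:**
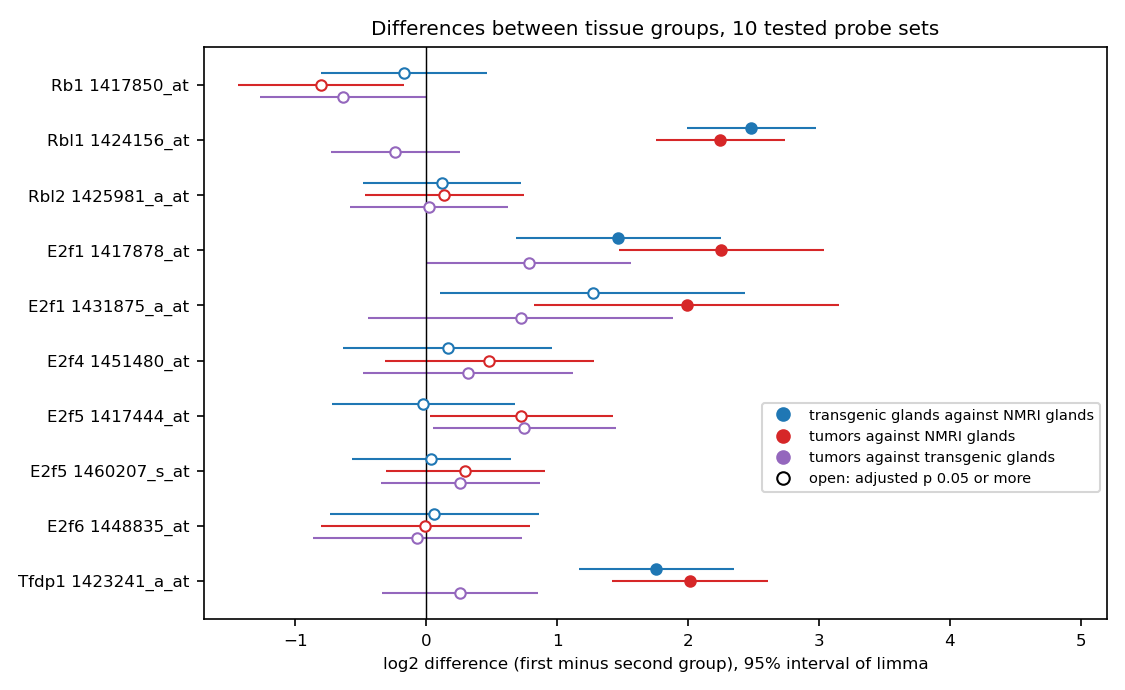
Log2 difference (first minus second group) with the 95% interval of limma for the 10 tested probe sets in 3 comparisons of tissue groups, where filled points passed at an adjusted p under 0.05. Rbl1, Tfdp1 and E2f1 stand to the right of 0 against NMRI glands, and no point is filled for tumors against transgenic glands.

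Counted together, 10 of the 13 probe sets were tested among tissues. Against NMRI glands, 3 were higher in transgenic glands and 0 lower (with no filter 2 of 13, Rbl1 and Tfdp1), where 9.16% of the 11651 probe sets tested on the array passed, 5.63% higher and 3.53% lower. In tumors 4 probe sets of 3 genes were higher and 0 lower, where 23% of all passed, 12.5% higher and 10.5% lower. With no filter 3 of 13 were higher in tumors, those of Rbl1 and Tfdp1 and 1 of the 2 of E2f1. For 3 of the 10 tested, Rbl1 and the 2 of E2f1, all NMRI glands were under the filter's cutoff. These entered the test by way of the arrays where they were high, so the counts of higher calls depend in part on the filter. Between tumors and transgenic glands none of the 10 passed in the limma fit, where 2.31% of all did. At an unadjusted p under 0.05 were 3 of the 10, Rb1, which was lower in tumors (95% interval -1.27 to -0.00016), and E2f1 1417878_at and E2f5 1417444_at, which were higher. The share of all probe sets under that unadjusted threshold was not computed, so this count has no background to be set against. The other probe sets of E2f1 and E2f5 had unadjusted p = 0.200 and 0.363 by limma. With the Gapdh ratio as a covariate the differences of the 3 were -0.46, 0.55 and 1.12. None of them passed (adjusted p = 0.708, 0.706 and 0.181). The median log2 difference of the 10 was 0.14, 0.60 and 0.26 in these comparisons in turn, against 0.02, 0.05 and 0.02 over all probe sets tested. The groups did not overlap in 3 of the 10 for transgenic against NMRI glands, where that held for 29.9% of all, and in 5 of the 10 for tumors against NMRI glands, where it held for 42.4%.

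The genes on either side of the pocket proteins in this pathway were read from lists made for this purpose, with 1 probe set a gene. The lists were made with earlier results of these data known. Among 50 known E2F target genes, 47 had a probe set, 45 were tested and 42 were higher in transgenic than in NMRI glands, with none lower and a median of 2.66. In 25 of the 45 all NMRI glands were under the filter's cutoff, so these entered the test by way of the arrays where they were high. With no filter 38 of the 47 were higher and none lower. All NMRI glands were at the floor for 8 of the 45 and some for 10, so that these differences are understated and their order is not known. With signals at the floor, the largest were Top2a, the topoisomerase that untangles chromosomes, 19.5-fold higher, Mcm5, a subunit of the replicative helicase, 18.7-fold higher, and the survivin gene Birc5, 15.8-fold higher. For Mcm5 and Birc5, 1 of the 3 NMRI glands was at the floor. Without both glands numbered 3, 40 of the 45 target genes were higher, and with the Gapdh ratio as a covariate 43 were. In tumors 44 of the 45 were higher than in NMRI glands, the exception being the phosphatase gene Cdc25a (-0.21 ± 0.27, adjusted p = 0.605). No target gene passed between tumors and transgenic glands in the limma fit (median 0.14).

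The medians of the other pathway lists were lower. Of 22 genes of the cyclin D and kinase arm upstream of RB, 18 were tested and 4 were higher in transgenic glands, with none lower and a median of 0.40. They were the kinase genes Cdk2 (3.11-fold) and Cdk4 (2.55-fold), the cyclin gene Ccne2 (at least 2.47-fold) and Cdkn2c (2.19-fold), which encodes the kinase inhibitor p18. Ccne2 is also on the target list, as are Ccne1 and Cdc25a of the 22. In tumors 9 of the 18 were higher than in NMRI glands. The inhibitor genes Cdkn1a and Cdkn2a were the members that passed between tumors and transgenic glands, 7.02-fold higher and at least 4.98-fold higher (adjusted p = 0.0424 and 0.00775). Among RB corepressors and chromatin partners, 3 of 17 tested of 23 were higher in transgenic glands: the Polycomb methyltransferase gene Ezh2 (2.67-fold), the DNA methyltransferase gene Dnmt1 (2.19-fold) and the histone-binding gene Rbbp7 (2.02-fold). Ezh2 and Dnmt1 are also on the target list. Of the 9 genes of the MuvB and DREAM complexes, 5 were tested and Mybl2, a target gene that drives mitotic genes, was higher (2.20-fold).

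**Figure D3:**
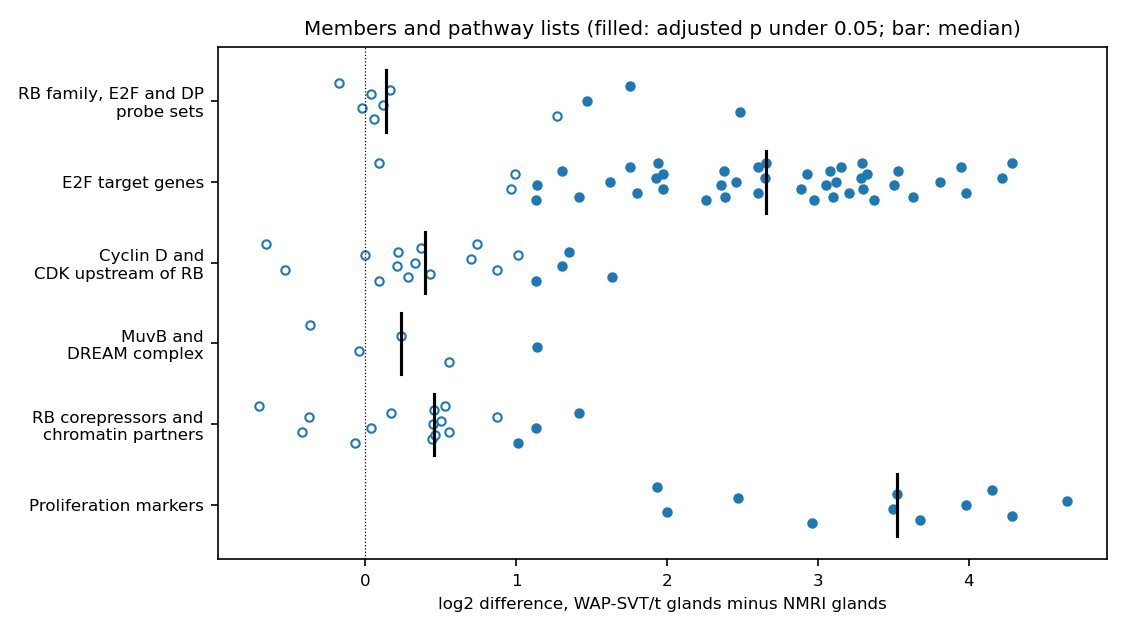
Log2 difference between WAP-SVT/t and NMRI glands for the 10 tested probe sets and for the genes of 5 lists, with 1 point per probe set, filled where the adjusted p was under 0.05, and a bar at each median. The E2F targets and proliferation markers, which share genes, have medians of 2.66 and 3.52, and the other sets have medians between 0.14 and 0.46.

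Markers of dividing cells moved with these genes. All 11 proliferation markers with a probe set, of 12, passed as higher in transgenic glands and in tumors than in NMRI glands. Their mean log2 signal was 6.16 to 6.47 in NMRI glands, 9.39 to 10.02 in transgenic glands, 9.70 to 10.01 in tumors and 9.62 to 9.82 in the lines. Their summed signal was 576 to 1068 in NMRI glands and at least 9924 on every other array, and 4 of the 11 were at the floor in all NMRI glands. Their part in the differences of Rbl1, E2f1 and Tfdp1 was not tested. Muscle markers also separated the NMRI glands from transgenic glands 1 and 2 and from tumors 2 and 3. Tumor 1 and transgenic gland 3 were not separated from the NMRI glands in this way. In transgenic gland 3 Rbl1 and Tfdp1 read 736 and 1043, between the values of the other transgenic glands. Both E2f1 probe sets had their lowest transgenic signal in that gland, 99.1 and 107. The part of muscle content in these values was not tested.

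The arrays can also be read for the genes most like each member, by Pearson correlation over the 12 arrays among 8186 other genes. For Rbl1 these were Nusap1 (0.99), a spindle protein gene, Haus1 (0.98), a subunit gene of the augmin complex, and Tacc3 (0.98), which acts at spindle microtubules. For Tfdp1 they were the kinetochore gene Nuf2 (0.98), the origin recognition gene Orc6 (0.97) and Ckap2 (0.97). For the brighter E2f1 probe set they were Cdkn2d (0.96), the kinase inhibitor p19, Ptprs (0.95) and the gamma-tubulin gene Tubg1 (0.95). Correlations above 0.9 were frequent, with 129 genes for Rbl1, 134 for Tfdp1 and 41 for E2f1, and all of them were computed over the same arrays. Among the members themselves Rbl1 and Tfdp1 had 0.80, Tfdp1 and E2f1 0.77, Rb1 and E2f1 -0.73, and Rbl1 and Rb1 -0.21.

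In the cell lines, compared as a class of 3 with the tumors, none of 10 tested probe sets passed in the limma fit, where 2.36% of 11006 did. An unadjusted p under 0.05 was found for 2 of them, E2f4 and Tfdp1, but the share of all probe sets under that threshold was not computed. E2f4 read 358 in ME-A, 519 in ME-B and 400 in ME-B-T/t and was above every tumor (log2 difference 0.91 ± 0.25, adjusted p = 0.130). In the same order Tfdp1 read 1937, 2233 and 1752, also above every tumor (0.67 ± 0.28, adjusted p = 0.283). Such a separation held for 24% of all probe sets tested. Rbl1 1424156_at had 579, 336 and 496 in the lines, within or below the tumors, and E2f1 1417878_at had 246, 267.5 and 226, within their range. The brighter E2f1 probe set, 1431875_a_at, had 676, 559 and 518, with ME-A above every tumor (0.63 ± 0.36, adjusted p = 0.419).

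With 1 array a line, differences between lines have no replicate check, and a 2-fold difference was counted. Rb1 was lowest in ME-B, with 307, against 1036 in ME-A and 499 in ME-B-T/t, so that ME-A was 3.38-fold above ME-B and ME-B-T/t 1.63-fold. E2f6 went the other way. It was highest in ME-B, with 233, against 70.7 in ME-A and 86.6 in ME-B-T/t, 3.29-fold and 2.69-fold below it, and both lower values were also below every tissue array. Rbl2 1418146_a_at was under the floor in ME-B and read 151 in ME-B-T/t, at least 2.63-fold higher. Its other probe set gave 136 and 248, a 1.83-fold difference in the same direction. E2f5 1417444_at was 2.30-fold higher in ME-A (324) than in ME-B (141), while 1460207_s_at was 1.46-fold higher.

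The remaining probe sets differed by less than 2-fold from ME-B in either other line. Rbl1 1424156_at was 1.72-fold higher in ME-A and 1.47-fold higher in ME-B-T/t than in ME-B. Both E2f1 probe sets, E2f4 and Tfdp1 differed by at most 1.45-fold from ME-B in either other line. Of 11 probe sets kept, 1 was higher and 1 lower by 2-fold or more in ME-B-T/t than in ME-B, where 13.9% of 12240 differed so, 8.29% higher and 5.63% lower. In ME-A 2 were higher and 1 lower than in ME-B, where 19.6% differed so, 10.7% higher and 8.91% lower. These comparisons share the ME-B array.

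**Figure D4:**
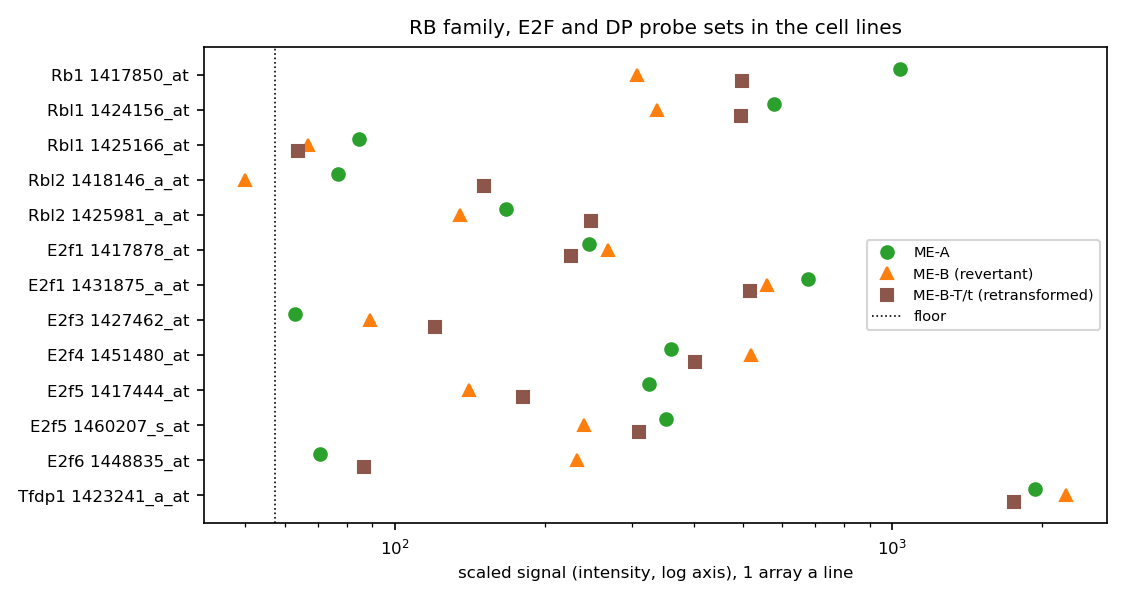
Scaled signal (intensity, logarithmic axis) of the 13 probe sets in the 3 lines, each from 1 array, and a dotted line at the floor. ME-B is the lowest line for Rb1 and the highest for E2f6, at 307 and 233.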

How the data were processed

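The authors deposited 1 linear intensity for each probe set and array, computed with MAS5 per the submitters' processing notes. For MAS5 the version, scaling target and detection calls were not given in the sources used here. Each of the 12 arrays was scaled to a common mean without the lowest and highest 2% of signals (trimmed means lay within 1.19-fold). Signals were set to a floor, the pooled 30th percentile (57.5), and log2 values were taken. Probe sets naming 1 gene in the platform's table (20380, apart from 64 controls) were tested if at least 3 arrays of the fit exceeded the pooled median (139.9). Of the 9 tissue arrays 3 groups were fitted together (6 residual degrees of freedom), and lines and tumors as 2 classes of 3 (4 residual degrees of freedom), with limma 3.58.1 in R 4.3.3 (lmFit, eBayes with intensity trend, two-sided, Benjamini-Hochberg adjustment over all probe sets tested, threshold 0.05). Unlike a fit of 1 probe set a gene, every probe set of a member that passed the filter was fitted. Standard errors are limma's. The script was tested on simulated data. Between 67.7% and 72.6% of signals were above the floor on each array, and arrays correlated at 0.75 to 0.96, with at most 0.304% identical values between any 2.

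Same-numbered NMRI and transgenic glands deviated together from their group means (correlations 0.24, 0.44 and 0.44), which is taken from the data, not the labels. Tumor numbers 1 and 3 did not pair with the glands, while number 2 deviated with both. The correlations were -0.02, 0.21 and -0.15 with NMRI glands and -0.15, 0.37 and -0.12 with transgenic glands. Tumor 1 deviated with the NMRI and transgenic glands numbered 3 (0.32 and 0.37). Members and lists were chosen with earlier results of these data known. Named genes were all members, the 3 called genes with the largest difference in a list and the 3 genes most correlated with a called member; further list genes were named after their values were seen. Motifs were searched in RefSeq promoters (GRCm38.p6) and figures drawn with matplotlib 3.10.9 in Python 3.11.15.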

Additional observations from a re-analysis of the deposited data

How the results depend on the processing

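The calls of Rbl1 1424156_at and Tfdp1 against NMRI glands held under all 20 alternatives in transgenic glands (log2 difference 2.42 to 2.58 and 1.66 to 1.86) and all 19 in tumors (2.17 to 2.40 and 1.85 to 2.29). No called member changed direction. For E2f1 1417878_at a floor at the 10th percentile gave 3.46 in transgenic glands and 4.25 in tumors. Rb1 was the 1 member called lower in tumors than in NMRI glands after quantile normalization, with the replicate block (adjusted p = 0.0290) and without NMRI gland 1; the other fits that left out an array gave 0. Pairing by sample number changed no call of a member between the gland groups other than E2f1 1431875_a_at. After quantile normalization 0 members were 2-fold higher in ME-B-T/t than in ME-B, since Rbl2 1418146_a_at then failed the filter.

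Counts over the whole array moved more. Transgenic against NMRI glands gave 1067 calls, 481 to 1049 leaving out 1 array (481 without NMRI gland 1, 543 without NMRI gland 2), 698 without both glands numbered 3 and 1737 with the 6 glands alone and a replicate block, where no E2f1 probe set passed the filter; these 2 settings were chosen after seeing the data. Tumors against transgenic glands gave 269, 69 with no filter, 140 with those 2 groups alone, 104 with the Gapdh ratio as a covariate, 80 without both glands numbered 3, and 54 (without tumor 2) to 240 leaving out 1 array. Tumors against NMRI glands gave 2684, and 1536 (without NMRI gland 1) to 3070 leaving out 1 array. Lines against tumors gave 260, 136 with no filter, 169 with 1 probe set a gene, and 0 (without tumor 1 or 3) to 1003 (without ME-A) leaving out 1 array. The causes were not tested. Signals at the floor, as in NMRI glands for E2f1 1417878_at and the dimmer Rbl1 probe set, bound a difference from below.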
